A study of Rattus norvegicus with 20 samples.

Results

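Ribosomal protein mRNA was measured in the hypothalamic arcuate nucleus of female Sprague-Dawley rats on postnatal day 15, with 20 samples in 5 groups of 4. The array carried 163 probes of 94 genes named as cytosolic ribosomal proteins, that is Rpl or Rps followed by a number with an optional suffix, or Rplp0 to Rplp2. A gene was kept when 1 or more of its probes stood well above background throughout a group, in each of the 4 samples, which held for 92 genes and 160 probes of the 17086 genes and 19883 probes tested. The 92 genes comprised 56 of the large and 36 of the small subunit, and Rpl3l and Rpl31l1 did not pass. SNS rats had been exposed to saline before birth, had no infantile spasms and received saline after birth. BNS rats had been exposed before birth to betamethasone, a synthetic glucocorticoid given to the mother in 2 injections of 0.4 mg/kg each on gestational day 15, and were otherwise handled as SNS. BYS, BYA and BYP rats had the same exposure to betamethasone and in addition received NMDA, a glutamate receptor agonist that triggers the spasms, at postnatal days 12, 13 and again 15. Of these, BYS received saline, BYA received ACTH, the pituitary hormone that drives glucocorticoid secretion, and BYP received PMX53, an antagonist of the complement receptor C5ar1. Betamethasone was thus shared by all groups but SNS, and no group received NMDA without it. The labels do not name the litter of a rat, so p-values measure the spread between these rats, some of which may be littermates.

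Ribosomal proteins assemble with ribosomal RNA into the large and small subunits of the cytosolic ribosome, which translates mRNA, and nearly every protein is present once per ribosome. The genes are therefore among the most strongly expressed in all cells, brain included, and their mRNAs tend to vary together. Many of these mRNAs begin with a cytosine and an unbroken run of pyrimidines, the terminal oligopyrimidine tract, through which the mTOR pathway and the binding protein Larp1 set their translation. Control of that kind acts on ribosome loading, so that a measurement of mRNA, as here, does not see it.

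The tract was looked for in the RefSeq transcript starts of assembly GRCr8, which held 72 of the 92 genes. A start was counted when the first base was C and at least 4 further bases in a row were C or T, on the strand of transcription only. Of the 72 genes, 24 (33.3%) began in this way, against 2.63% of all 33469 starts searched. The following examples show 15 bases before and 15 bases from the start, with the tract in capitals, and were picked for a long run or because the gene is described further on. The letters describe these annotated starts only, and no match in a window says nothing of the factor that reads the tract.
Rpl10 (chrX:157205835-157205864, plus strand): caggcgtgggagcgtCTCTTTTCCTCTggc
Rpl31 (chr9:49143096-49143125, plus strand): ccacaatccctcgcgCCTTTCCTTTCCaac
Rplp1 (chr8:71290858-71290887, minus strand): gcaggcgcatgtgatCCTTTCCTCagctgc
Rps18 (chr20:4933730-4933759, plus strand): cacgtcacttccgctCTCTCTTCCacagga
Rpl35a (chr11:81235007-81235036, minus strand): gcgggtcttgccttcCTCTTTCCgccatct
Rps27 (chr2:177964592-177964621, minus strand): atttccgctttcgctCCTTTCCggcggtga

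The arrays were Agilent arrays read in a Cy3 and a Cy5 channel, and each channel was taken as a sample. The 20 samples lay on 11 arrays of 6 slides, and on 9 arrays both channels held samples of the same group. SNS, BNS, BYS and BYP each lay on 1 slide and BYA on 2, so that slide and group cannot be told apart. For BYA replicate 3 the labels name a dye that does not match the sample order of its raw data name, so the animal in that channel is not certain. The other sample on that array is, by its name, a male SNS rat of another series. Sex and treatment of this replicate are therefore not certain either. Levels are log2 of the background-corrected intensity after quantile normalization of the 20 channels, a step that gives every channel the same distribution. Precision is limited by how many arrays there are. In these bulk samples, fewer cells of a type and less RNA per cell cannot be told apart. All 10 marker genes of arcuate nucleus neurons were measured, with a summed log2 level of 16.64 to 17.75 over the 20 samples. Of 5 pituitary markers only Lhb and Cga passed, and no probe of Gh1, Prl or Tshb did. Hba-a1 and Alas2, of the 4 red blood cell markers measured, were higher in BNS than in SNS, while Hbb (0.06) and Hbb-b1 (0.51) were not called. The summed level of that list was 17.38 to 17.84 in BNS, 17.18 to 17.46 in SNS and 16.83 to 17.13 in BYP. The summed level of choroid plexus markers was 11.99 to 12.87 in SNS and at most 11.97 elsewhere, with none of its 4 genes called. Of 4 neuron markers Syt1 was higher in BNS (0.50, limma, adjusted p = 0.0413). Snap25 (0.22), Tubb3 (0.23) and Eno2 (−0.20) were not called. The summed level of the neuron list was 15.25 to 15.6 in BNS and 13.91 to 15.24 in SNS. Of 5 microglia markers Cx3cr1 was lower in BNS (−0.73, limma, adjusted p = 0.015). Aif1 (−0.12), C1qa (−0.08), Csf1r (0.08) and Itgam (0.06) were not called. The summed level of the microglia list was 13.08 to 13.54 in BNS and 13.74 to 13.86 in SNS. Between BNS and SNS 15.2% of all genes were called. The SNS arrays were uneven, as described next, and the part of this in the marker values was not tested. The part of these cell types in the ribosomal protein values was not tested either.

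The SNS arrays stood apart before any gene was compared. A diagonal band on both SNS arrays was dim, while the rest of those arrays was bright after normalization. To place spots inside or outside the band, each was given a local deviation, the median over its neighbours (6 rows and 3 columns to each side) of each neighbour's level minus its own median over the 20 channels. A spot was called locally dim where this deviation lay under −0.3. By this measure 22.1% to 28.2% of the ribosomal protein spots were locally dim in an SNS sample, against 0.552% to 2.21% of them in BNS and 0% to 1.1% in BYS. In BYA the share was 0.552% to 7.73%, and in BYP it was 0% to 3.31%. The scanner software also marked 3.31% to 7.73% of their spots in SNS samples as outliers, against 0% to 2.21% in the other groups, and these values were left out.

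**Figure D1:**
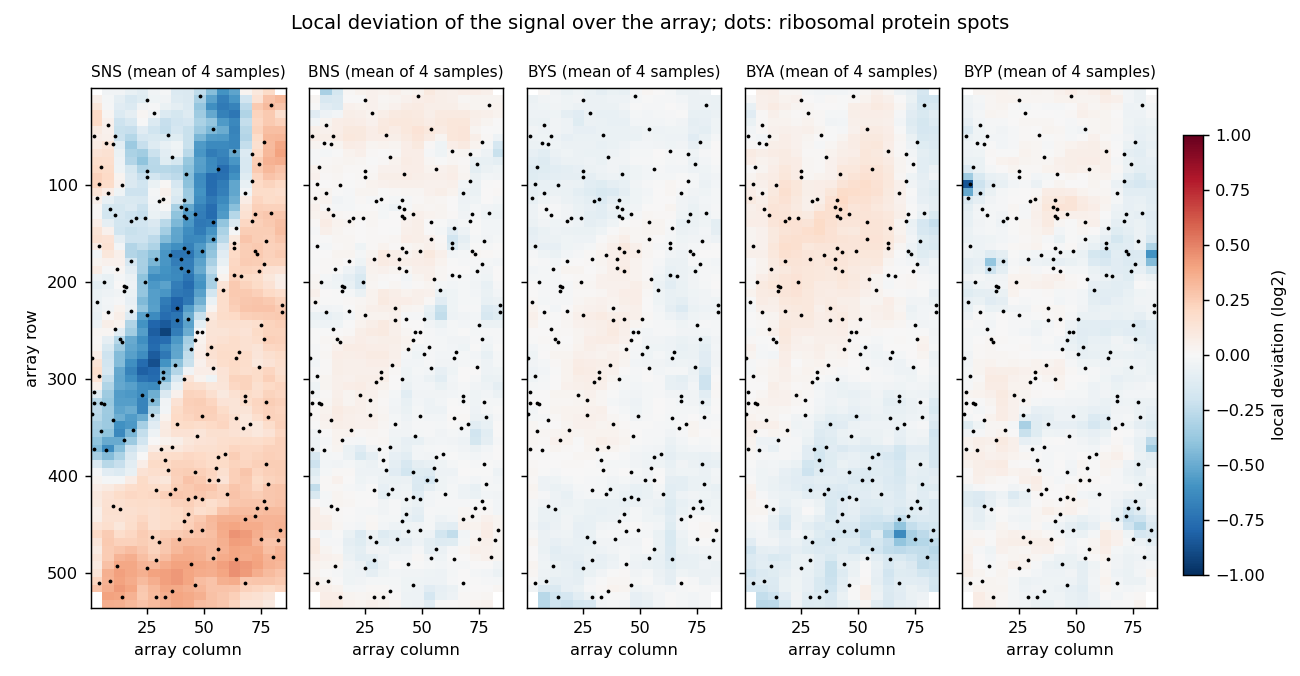
The vertical axis is the array row and the horizontal axis the array column, with 1 panel for each group, and colour gives the local deviation in log2 as the mean of 4 samples. Black dots mark the ribosomal protein spots. A dim diagonal band crosses the SNS arrays over most of their rows, with a lowest block mean of −0.92, and no such band is seen in the other groups, apart from small dim places such as that near row 99 and column 4 in BYP.

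The size of this effect can be read from probes that were printed more than once, since every copy meets the same RNA. Over the 1037 probes with 10 copies, 8.84% of copies in SNS lay more than 0.7 under the median of their own probe, against 0.16% in BNS, 0.0501% in BYS, 0.501% in BYA and 0.13% in BYP. When the rows were divided into 4 parts, the share within SNS was 24.1% in the first and 0.211% in the last, which held 127 rows. Rps4x and Rpl15 were the ribosomal protein genes with such probes. The 10 copies of Rps4x, a small subunit gene on the X chromosome, spanned 1 to 2.1 on the log2 scale in an SNS sample and 0.635 to 0.917 in a BNS sample. The 10 copies of Rpl15, of the large subunit, spanned 1.57 to 1.8 in SNS and 0.478 to 0.565 in BNS. Identical copies thus lay further apart in SNS than in BNS, without overlap of the ranges. For Rps4x the other groups did overlap SNS, at 0.684 to 1.071 in BYS, 0.698 to 1.385 in BYA and 0.675 to 1.492 in BYP. For Rpl15 they stayed below SNS, at 0.44 to 0.497 in BYS, 0.32 to 1.108 in BYA and 0.296 to 0.597 in BYP. The Rps4x probe is printed here because 1 sequence, printed at 10 places, gave this spread.
Rps4x, A_42_P728472 (rn4, chrX:90252399-90252458, minus strand): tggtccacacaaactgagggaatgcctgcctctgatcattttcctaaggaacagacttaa

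The comparison of BNS with SNS asks whether betamethasone before birth changed these levels in rats without spasms. With limma, the array as a random block and the dye as a covariate, 13 ribosomal protein genes were called higher and 2 lower in BNS at an adjusted p under 0.05, which is 16.3% of the 92. The background was 15.2% of all 17083 genes tested, 9.89% higher and 5.3% lower, so the share was close to that of any gene. The median log2 difference of the 92 genes was −0.09, against −0.04 over all genes, and 80% of them lay between −0.40 and 0.60, against −0.44 and 0.53 over all genes. The 4 BNS and 4 SNS values did not overlap for 30 genes (15 higher, 15 lower), and for 33% of all genes. Without the array block 16 genes were higher and 5 lower, against 28.6% of all genes called. At an unadjusted p under 0.05 there were 23 genes, or 25% against 31.1% over all genes.

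Rps20, a small subunit protein, differed most. Its log2 level was 12.89, 14.16, 14.31 and 14.17 in the SNS samples and 15.56, 15.72, 15.99 and 15.75 in the BNS samples, a difference of 1.87 (SE 0.31, limma, adjusted p = 0.000622). All SNS samples were below all BNS samples, and SNS replicate 1 was lowest. The levels of BYS (15.63, 15.72, 15.67 and 15.77) were near those of BNS, and so were 3 BYA values between 15.63 and 15.75, the fourth being left out as an outlier spot. In BYP the levels were 15.65, 14.94, 15.63 and 15.79, with replicate 2 below every BNS value. Rps20 has a single probe, and it sits at row 240 and column 38, where all 4 SNS samples were locally dim by 0.74 on average.

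The next genes were of the large subunit. Rpl7a was at 13.65, 13.56, 12.73 and 12.45 in SNS and 14.75, 14.66, 14.77 and 14.48 in BNS, a difference of 1.57 (SE 0.20, limma, adjusted p = 4.26e-05). Rpl31l2, a copy named after Rpl31, was at 13.83 and 13.79 in the 2 SNS samples with a value and at 14.84, 15.14, 15.37 and 15.04 in BNS, a difference of 1.29 (SE 0.20, limma, adjusted p = 0.000442). The 2 SNS samples with a Rpl31l2 value lay on 1 array, and the 2 without it were outlier spots. Rpl18 was at 14.35, 14.60 and 14.59 in 3 SNS samples and 15.54, 15.53, 15.89 and 15.54 in BNS, a difference of 1.13 (SE 0.13, limma, adjusted p = 2.54e-05). In each of these genes the groups did not overlap, and BYS, BYA and BYP lay with BNS, at 14.44 to 14.75 for Rpl7a, 14.77 to 15.31 for Rpl31l2 and 15.39 to 15.77 for Rpl18.

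Rpl7 and Rpl5l1 completed the 6 largest rises. Rpl7 was at 15.39, 15.45, 15.00 and 14.59 in SNS and 15.97, 15.86, 16.05 and 15.76 in BNS, a difference of 0.80 (SE 0.17, limma, adjusted p = 0.00309). That value is from its probe A_44_P453874 alone. Its other probe, A_64_P078937, differed by 0.17 (limma, adjusted p = 0.426). Rpl5l1, a copy named after Rpl5, was at 13.63, 13.75 and 13.79 in 3 SNS samples and 14.55, 14.39, 14.61 and 14.41 in BNS, a difference of 0.76 (SE 0.19, limma, adjusted p = 0.0118). The other 7 genes called higher were chosen after their values were seen, and their differences ran from 0.37 (Rpl36a) to 0.69 (Rps6). Among them, Rpl10, which joins the large subunit late in its assembly, differed by 0.56, and Rpl41, the shortest of the ribosomal proteins, by 0.54. Rpl41 lay at the top of the scale, at 17.77 in 3 of 4 BNS samples, where quantile normalization leaves no room for a higher value.

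The 2 genes called lower were Rps9 and Rpl34l1. Rps9, a small subunit protein near the entry of the mRNA channel, was at 15.999, 16.12, 16.03 and 15.94 in SNS and 14.87, 15.71 and 15.58 in 3 BNS samples, a difference of −0.68 (SE 0.19, limma, adjusted p = 0.0223). BNS replicate 1 was far below the other BNS samples, and without it the difference was −0.38 (limma, adjusted p = 0.166). Rpl34l1, a copy named after Rpl34, was at 14.48, 14.53, 14.57 and 14.60 in SNS and 13.75, 13.98, 14.25 and 14.06 in BNS, a difference of −0.54 (SE 0.17, limma, adjusted p = 0.0416), which was −0.44 without BNS replicate 1 (adjusted p = 0.0978). Rps24, of the small subunit, had the next lowest p in this direction, with −0.44 (SE 0.16, limma, adjusted p = 0.0638). The spots of these 3 genes lay outside the band, where the SNS arrays were locally bright by 0.20 to 0.32.

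Where a probe lay on the array and how it differed went together. Of the 158 ribosomal protein probes printed once, 55 were locally dim in at least 1 SNS sample, and 24 of these (43.6%) were called higher in BNS, with a median difference of 0.58. Of the other 103 probes, 0 were called higher by limma and 4 lower, with a median difference of −0.18. Over all probes tested, 10.2% were called higher and 5.23% lower. The same split was found in probes of other genes, of which 26.9% of 7084 in dim places and 0.571% of 11382 elsewhere were called higher, with medians of 0.30 and −0.22. The 24 ribosomal protein probes called higher, 15.2% of the 158, all lay in dim places. Among the 13 genes called higher, 12 probes were called by themselves, and all 12 were locally dim in at least 1 SNS sample, although for Rpl31l2 the dim samples were those without a value. The part of the array place in each call was not tested beyond the values given next.

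**Figure D2:**
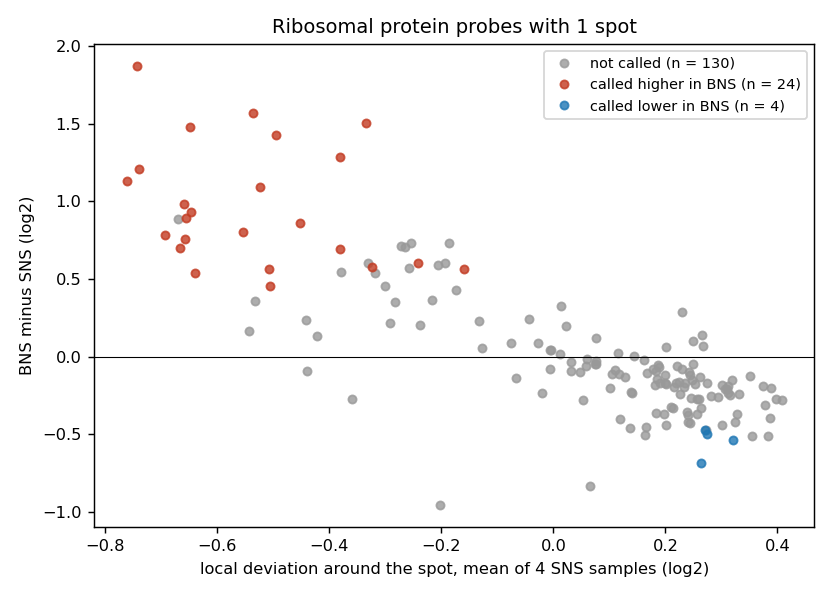
Each point is a ribosomal protein probe with 1 spot, with the local deviation around the spot on the horizontal axis (log2, mean of 4 SNS samples) and the difference between BNS and SNS on the vertical axis (log2). All 24 probes called higher in BNS (red) lie left of 0, where the SNS arrays were dim, and the 4 called lower (blue) lie right of 0, where they were bright.

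Values with locally dim spots left out were computed after this was seen. Then 85 genes could be compared, of which 1 was higher and 2 lower (3.53%, against 7.58% of all genes). Of the 13 genes called higher, 6 had no SNS value left (Rps20, Rpl7a, Rpl18, Rpl5l1, Rpl10 and Rpl41). Of the other 7, Rpl31l2 was called at the same difference of 1.29 (limma, adjusted p = 0.00201), from 2 SNS samples on 1 array. Rpl15 (0.26), Rpl7 (0.17) and Rps4y2 (0.10) remained above 0 and were not called, while Rpl17 (−0.20), Rpl36a (−0.18) and Rps6 (−0.24) fell below 0 and were not called. The Rpl7 value was then that of its other probe, A_64_P078937. Spots were left out after normalization, so the SNS spots that remained kept the brightness found outside the band. Probes of other genes in no dim place had a median difference of −0.22. With the local deviation subtracted from every spot instead, 5 genes were higher (Rps20, Rpl7a, Rpl31l2, Rpl17 and Rps4y2) and 0 lower by limma (5.43%, against 5.08% of all genes). The difference of Rps20 was then 1.08 (adjusted p = 0.0345), of Rpl7a 0.97 (adjusted p = 0.000651) and of Rpl31l2 1.31 (adjusted p = 0.000621). Of the 36 genes with a spot in the last 127 rows, beyond the band, 0 were called higher by limma and 2 lower, Rpl6 and Rps9 (5.56%, against 13.8% of all genes). These rows were likewise taken from values normalized over the whole array.

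Genes with several probes allowed a comparison within the gene. Of 49 such genes, 24 had probes with differences of both signs between BNS and SNS, and the median spread between probes of a gene was 0.46. Of 17 genes with at least 1 probe called higher, only Rpl10 had every probe called. Rpl17 of the large subunit shows how a mean of probes came to a call. Its probe A_64_P020642, in the band, was at 13.11, 13.10, 12.30 and 12.35 in SNS and 14.04, 14.03, 14.36 and 14.15 in BNS. Its probe A_64_P029646, outside it, was at 14.74, 14.91, 14.84 and 15.21 in SNS and 14.61, 14.77, 14.68 and 14.84 in BNS. The differences were 1.43 and −0.20, and the gene, as their mean, was called at 0.62 (limma, adjusted p = 0.00148). The widest spread, 1.99, was that of Rpl27 of the large subunit, chosen after its values were seen, with 1.48 (limma, adjusted p = 3.45e-05) for a probe in the band and −0.51 (adjusted p = 0.145) for one outside it.

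Probes named for the same gene that overlap in sequence are expected to bind nearly the same stretch of RNA. Which RNA each probe binds was not tested. There were 18 pairs that shared at least 30 aligned bases with at most 10 percent differing. In 7 pairs 1 probe was locally dim in an SNS sample and the other in none, and the median distance between their differences was 1.09, with 1 probe called higher and the other not in 5 of the 7. In the other 11 pairs the median distance was 0.206. The sequences of 3 such pairs, picked after their values were seen for the size of the contrast, are printed below with coordinates of the array design on rn4. Capitals mark the longest run of bases that both probes share.
Rpl35a, A_64_P085690 (rn4, chr11:69549038-69550463, minus strand): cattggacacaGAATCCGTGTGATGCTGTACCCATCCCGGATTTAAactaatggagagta
Rpl35a, A_64_P122429 (rn4, chr11:69549052-69550477, minus strand): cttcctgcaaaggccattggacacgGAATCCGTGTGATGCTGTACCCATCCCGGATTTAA
Rps23, A_64_P031072 (rn4, chr2:21047796-21047855, plus strand): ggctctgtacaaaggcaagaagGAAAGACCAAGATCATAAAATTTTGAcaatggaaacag
Rps23, A_64_P065502 (rn4, chr2:21047791-21047849, plus strand): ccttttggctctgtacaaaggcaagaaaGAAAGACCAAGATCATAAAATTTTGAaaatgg
Rpl10a, A_64_P041238 (rn4, chr4:4989077-4989136, plus strand): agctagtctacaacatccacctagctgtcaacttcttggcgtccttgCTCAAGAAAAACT
Rpl10a, A_64_P029516 (rn4, chr4:4989107-4989166, plus strand): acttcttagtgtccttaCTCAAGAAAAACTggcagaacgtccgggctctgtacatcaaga

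The Rpl35a probes (large subunit) match at 45 of 46 aligned bases with a shared run of 35. A_64_P085690, at row 177 and locally dim in all 4 SNS samples, was at 15.01, 14.52 and 14.70 in 3 SNS samples and 15.80, 15.89, 16.16 and 16.07 in BNS, a difference of 1.21 (SE 0.16, limma, adjusted p = 6.43e-05). A_64_P122429, at row 408 and dim in none, was at 16.04, 16.05, 15.97 and 16.04 in SNS and 15.60, 15.78, 15.98 and 15.78 in BNS, a difference of −0.24 (SE 0.16, limma, adjusted p = 0.3). The first probe thus had every SNS value below every BNS value, and the second had 3 of its 4 SNS values above every BNS value.

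In Rps23, a small subunit protein near the decoding centre, 52 of 54 aligned bases match. A_64_P031072, locally dim in 2 SNS samples, was at 14.16, 13.81 and 13.54 in 3 SNS samples and 15.21, 15.34, 15.59 and 15.32 in BNS, a difference of 1.504 (limma, adjusted p = 2.81e-05). A_64_P065502, dim in none, was at 14.95, 14.93, 14.79 and 14.60 in SNS and 14.28, 14.38, 14.76 and 14.36 in BNS, a difference of −0.37 (limma, adjusted p = 0.139). The first probe was low in SNS and the second was not, apart from an overlap with BNS replicate 3. The low value of 14.16 was that of SNS replicate 2, where the local deviation was −0.14 and the spot not locally dim. In Rpl10a (large subunit), where 27 of 30 aligned bases match, the probe at row 238 differed by 0.86 (limma, adjusted p = 0.000567) and that at row 465 by −0.23 (adjusted p = 0.18). The array design places both Rpl10a probes on chromosome 4, while RefSeq places the gene on chromosome 20, so they may not bind the same RNA.

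**Figure D3:**
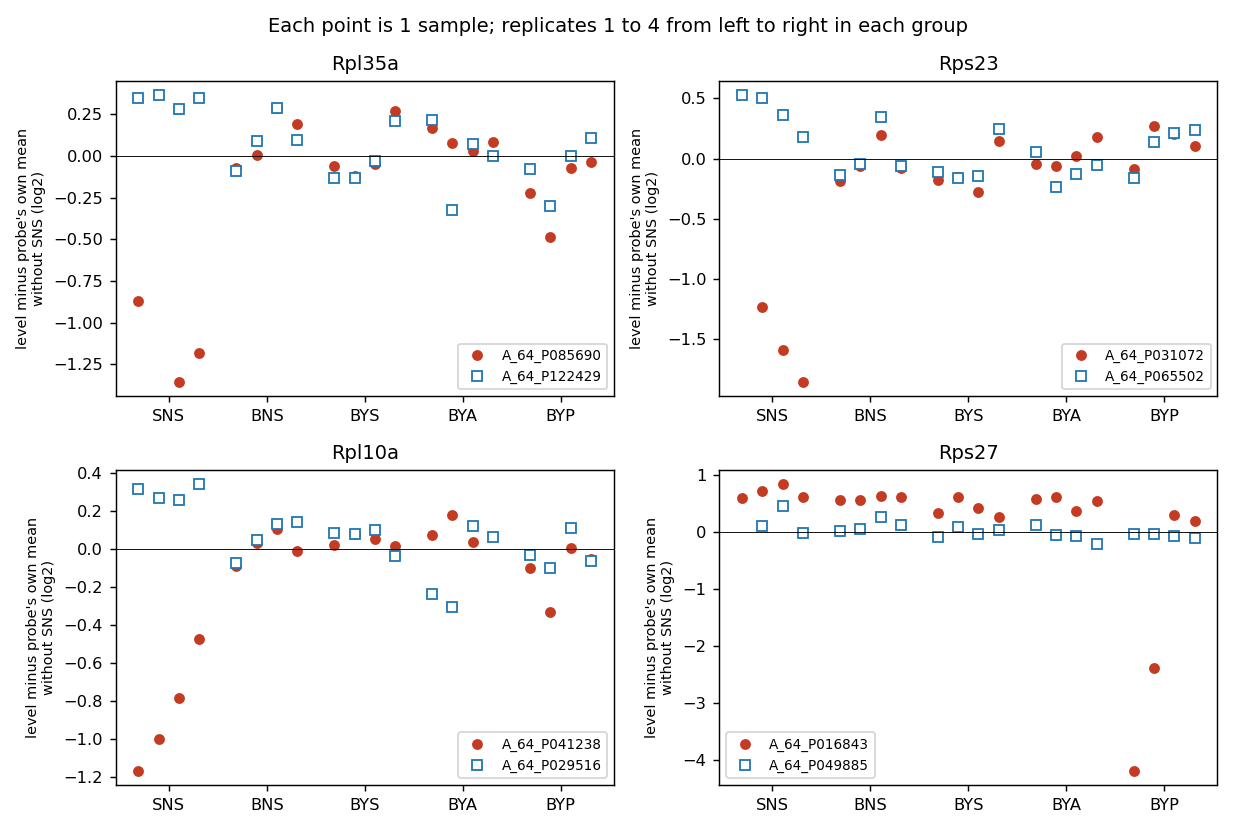
Each panel shows 2 probes of a gene, with groups on the horizontal axis and replicates 1 to 4 from left to right within a group. The vertical axis is the level of a probe minus its own mean over the 16 samples that are not SNS (log2). Another probe of Rpl35a (−0.31, BNS minus SNS) and another of Rps23 (0.43) are not shown. In Rpl35a, Rps23 and Rpl10a the filled points, the probe that was locally dim in SNS samples, drop in SNS while the open squares do not. For Rps23 the drop includes SNS replicate 2, where the spot was not locally dim. In Rps27 the filled points drop in BYP replicates 1 and 2 alone.

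The 6 comparisons among BNS, BYS, BYA and BYP, which share betamethasone and leave SNS aside, gave 0 calls among the 92 genes by limma. The background was 0% of all genes for BYS minus BNS, 0.00585% for BYA minus BNS, 0.0878% for BYP minus BNS, 0% for BYA minus BYS, 0.00585% for BYP minus BYS and 0% for BYP minus BYA. The median log2 difference of the 92 genes was −0.05, −0.05, −0.07, 0.00, −0.05 and −0.03 in the same order. Over all genes the medians were 0.00 in every one of these comparisons. At an unadjusted p under 0.05 there were 3, 4, 7, 7, 3 and 3 genes, or 3.26%, 4.35%, 7.61%, 7.61%, 3.26% and 3.26%, where all genes had 3.24%, 7.51%, 10.5%, 4.34%, 3.89% and 7.95%. The median 95% interval reached 0.32 to 0.34 to either side on the log2 scale, and 87 to 91 of the 92 intervals lay within −1 and 1. A change of a single gene that is smaller than this could not be detected with 4 samples a group. Larger changes could be missed as well, since the intervals are not adjusted for the number of genes tested. In BYA minus BNS, Rps10l1 at −0.50 was not called (limma, adjusted p = 0.46). Without the array block 0 of the 92 genes were called in each of the 6, against a background of 0.0293%, 0.117%, 1.5%, 0%, 0.0351% and 0.158%. With the slide as a random block 1 to 9 of them were called, or 1.09% to 9.78%, where all genes had 0.72% to 15.5%. The comparison with 9 calls, BYP minus BNS, was also that with 15.5% of all genes. Slide and group cannot be told apart, so the fit with the slide block does not take out differences between slides. Comparisons that have a group in common rest in part on the same samples.

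**Figure D4:**
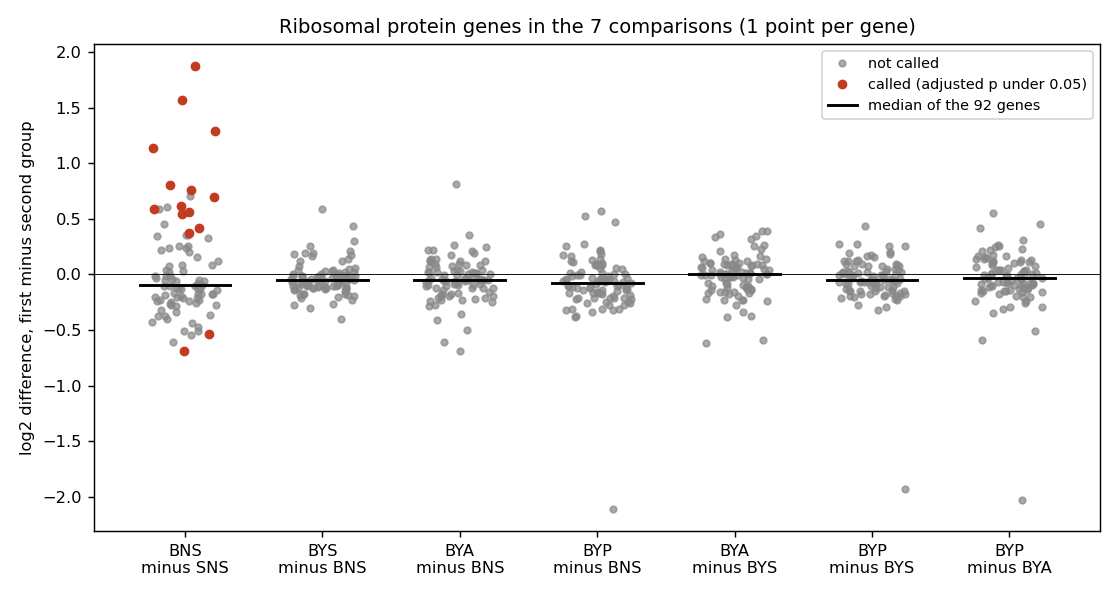
The horizontal axis names the comparison and the vertical axis is the log2 difference of the first minus the second group, with 1 point per ribosomal protein gene and a line at the median of the 92. The points called in BNS minus SNS (red) are 13 above and 2 below 0, no other comparison has a red point, and the grey point near −2 in the comparisons with BYP is Rps27.

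Spasms without treatment (BYS) were compared with no spasms (BNS). Rps4y2, a gene named after the Y-linked copy of S4 whose probes are placed on chromosome 4 by the array design, had the lowest p. It was at 10.93, 11.09, 11.11 and 10.83 in BYS and 11.47, 11.21, 11.42 and 11.45 in BNS, a difference of −0.40 (SE 0.13, limma, adjusted p = 1). The groups did not overlap, as in 4 of the 92 genes and in 6.47% of all genes, and the gene did not pass the test. Rpl22l1, a paralog of Rpl22, had the largest difference, 0.59 (SE 0.40, limma, adjusted p = 1), with BNS samples at 9.91, 10.47, 12.14 and 11.75 that surrounded those of BYS. BNS replicates 1 and 2, the low samples, share an array. With locally dim spots left out the Rpl22l1 difference was −0.07. Rps9 differed by 0.43 (SE 0.19, limma, adjusted p = 1), of which 0.13 remained without BNS replicate 1.

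In BYA minus BNS, Rps10l1 and Rpl27a had the lowest p among the genes below 0. Rps10l1, a copy named after the small subunit gene Rps10, was at 14.63, 14.94 and 15.29 in 3 BYA samples and 15.38, 15.73, 15.45 and 15.55 in BNS, a difference of −0.50 (SE 0.15, limma, adjusted p = 0.46). Rps10 itself, whose probe matches that of Rps10l1 at 50 of 51 aligned bases, differed by −0.04, and signal from the RNA of either gene cannot be told apart. Rpl27a, of the large subunit, was at 13.67, 14.26, 15.03 and 14.61 in BYA and 15.11 to 15.22 in BNS, a difference of −0.69 (SE 0.22, limma, adjusted p = 0.521). In Rps10l1 and Rpl27a all BYA values were below all BNS values. BYA replicates 1 and 2, which share an array, were lowest for Rps10l1. BYA and BNS did not overlap in 5 of the 92 genes and in 8.73% of all genes. The spots of both genes lay in the last part of the rows, at rows 447 and 484. There 1.52% of repeated copies in BYA lay more than 0.7 under their probe's median, against 0.0423% in BNS. Over all spots 1.34% were locally dim in BYA replicate 3 and 5.78% to 7.09% in the other replicates. The part of the array place in these values was not tested. Rpl7l1, a paralog of Rpl7, was at 9.31, 10.19, 11.37 and 11.09 in BYA and 11.33, 11.05, 11.29 and 11.17 in BNS, a difference of −0.61 (SE 0.32, limma, adjusted p = 0.682) with overlap of the groups. Against BYS, Rps25, a small subunit protein that some viral mRNAs need to recruit ribosomes, was at 12.68, 12.49, 12.78 and 12.58 in BYA and 12.41, 12.13, 12.36 and 12.10 in BYS, a difference of 0.39 (SE 0.15, limma, adjusted p = 1). All 4 BYA values were above all 4 BYS values. These groups did not overlap in 5 of the 92 genes and in 4.16% of all genes.

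In BYP, Rps27 stood out from all other members. This small subunit gene was at 11.27, 13.07, 15.74 and 15.64 in BYP and at 16.01, 16.01, 16.08 and 16.06 in BNS, a difference of −2.11 (SE 0.66, limma, adjusted p = 0.251), with −1.93 against BYS (adjusted p = 1) and −2.03 against BYA (adjusted p = 0.375). BYP replicates 1 and 2, the low samples, were the Cy3 and Cy5 channels of 1 array. The value rests on probe A_64_P016843, printed below because the low values are its own. Its spot at row 99 and column 4 had a local deviation of −0.91 and −1.25 in BYP replicates 1 and 2 and of −0.31 to 0.33 in the other 18 samples.
Rps27, A_64_P016843 (rn4, chr2:182451978-182452037, minus strand): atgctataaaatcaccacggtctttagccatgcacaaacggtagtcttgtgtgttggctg

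A second Rps27 probe, A_64_P049885 at row 434, was at 15.90, 15.90, 15.86 and 15.83 in BYP and 15.96, 15.99, 16.21 and 16.05 in BNS, a difference of −0.18 (limma, adjusted p = 0.698). All 4 BYP values lay below all 4 BNS values, by far less than in the first probe. These groups did not overlap in 13.3% of all genes. It had not entered the value of the gene because SNS replicate 1 lacks it, and with locally dim spots left out the gene takes its value of −0.18. Rps27l and Rps27l3, the paralogs of Rps27, differed by −0.05 and 0.09 between BYP and BNS.

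Other members in BYP were nearer to the control. Rps9 was at 15.67, 16.05, 15.88 and 15.88 in BYP and 14.87, 15.71 and 15.58 in 3 BNS samples, a difference of 0.53 (SE 0.19, limma, adjusted p = 0.323), which was 0.22 without BNS replicate 1. Rps19l1, a copy named after Rps19, differed by 0.57 (SE 0.25, limma, adjusted p = 0.434), while Rps19 differed by −0.05. Against the same BYS values, Rps25 was at 12.43, 12.75, 12.96 and 12.60 in BYP, a difference of 0.44 (SE 0.15, limma, adjusted p = 1). All 4 BYP values were above all 4 BYS values. These groups did not overlap in 5 of the 92 genes and in 4.78% of all genes. Against BYA, Rps10l1 differed by 0.45 (SE 0.15, limma, adjusted p = 0.393), and it was called without BYA replicate 3, the sample whose channel is not certain, at 0.70 (adjusted p = 0.047). BYA replicate 4 has no value of this gene, so that call rests on BYA replicates 1 and 2, the 2 channels of 1 array.

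Members with a known role beyond the ribosome body were described by role. The stalk of the large subunit, which recruits elongation factors, is built from Rplp0, Rplp1 and Rplp2. Rplp0 was at 17.23, 17.17, 15.83 and 15.99 in SNS and 16.82 to 17.01 in BNS, so that 1 SNS array lay above and the other below BNS, and the difference was 0.34 (SE 0.26, limma, adjusted p = 0.38). Its 2 probes differed by 0.89 (dim in 2 SNS samples) and −0.21 (dim in none). Rplp1 differed by −0.51 (SE 0.18, limma, adjusted p = 0.0654) and Rplp2 by −0.28 (SE 0.18, limma, adjusted p = 0.279), both from spots outside the band. In the 6 comparisons without SNS the 3 stalk genes lay between −0.07 and 0.22.

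Rps6, the substrate of the S6 kinases, was called higher in BNS than in SNS at 0.69 (SE 0.17, limma, adjusted p = 0.0118) from 2 SNS samples and lost the call without SNS replicate 3 (0.58, adjusted p = 0.0575). Both of its probes lacked 2 values, and the first by name was taken. It lay in the band, and the other, at 15.01, 15.14, 15.27 and 15.65 in SNS and 14.86, 14.89, 15.18 and 15.16 in BNS, differed by −0.24. Between BYP and BNS, Rps6 differed by −0.34 (SE 0.14, limma, adjusted p = 0.403), with BYP at 15.00, 14.78, 15.18 and 15.05 and BNS at 15.33, 15.25, 15.48 and 15.32, without overlap. The groups did not overlap in 6 of the 92 genes and in 13.3% of all genes.

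Rpl5 and Rpl11 form a particle with 5S ribosomal RNA that also binds Mdm2, the regulator of p53. Between BNS and SNS they differed by −0.37 (SE 0.22, limma, adjusted p = 0.262) and 0.35 (SE 0.14, limma, adjusted p = 0.0912). Rps27a, which is made as a fusion with ubiquitin, differed by −0.32 (limma, adjusted p = 0.177), Rps19, mutated in Diamond-Blackfan anaemia, by −0.14 (adjusted p = 0.421), and Rpl26, which binds the p53 mRNA, by −0.02 (adjusted p = 0.958). In the comparisons without SNS these 5 genes lay between −0.21 and 0.26, and none passed the test.

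Rpl13a and Rps18 are common reference genes for quantitative PCR. Rps18 was at 16.18, 16.01, 14.69 and 14.36 in SNS, so that the samples of 1 array lay more than 1 log2 unit under those of the other, and its SD of 0.92 was the highest of the 92 genes in SNS. In BNS it was at 16.27, 16.18, 15.45 and 15.74, and the difference was 0.60 (SE 0.32, limma, adjusted p = 0.214). Rpl13a was at 16.49, 16.50, 15.47 and 14.77 in SNS and 16.32 to 16.53 in BNS, a difference of 0.59 (SE 0.29, limma, adjusted p = 0.179). In both genes SNS replicates 3 and 4 were low and locally dim, and SNS replicates 1 and 2 were not low. Among the groups without SNS, Rps18 differed by −0.10 to 0.19 and Rpl13a by −0.35 to 0.31 in the 6 comparisons.

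Copies and paralogs were set beside their partners between BNS and SNS. Rpl31l2 differed by 1.29 and Rpl31 by −0.20, with 47 of 57 aligned bases matching between their closest probes. Rpl5l1 differed by 0.76 against −0.37 for Rpl5, and Rpl7 by 0.80 against −0.37 for Rpl7l1. The probes behind Rpl5l1 and Rpl7 lay in the band. The Rpl31l2 spot was locally dim in SNS replicates 3 and 4, which lack a value, and its 2 SNS values came from samples in which it was not. A pair with both genes outside it was Rps10l1 (−0.10) and Rps10 (−0.05). Such near-identical probes may bind RNA of either gene.

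Over the 4 groups that received betamethasone, the range of group means was 0.217 on the log2 scale for the median gene and exceeded 0.5 for 8 of the 92. The smallest range was that of Rpl31, 0.0158. The widest were those of Rps27 (2.11), Rpl22l1 (0.81), Rpl27a (0.76), Rpl7l1 (0.73) and Rps10l1 (0.58). The SD of these genes in their own groups reached 2.16 for Rps27 in BYP, 1.05 for Rpl22l1 in BNS and 0.93 for Rpl7l1 in BYA, whereas the median SD of a member within a group was 0.133 to 0.181. After group and dye means were removed, the median correlation between 2 of the 78 genes without a missing value was 0.154 over the 16 samples without SNS, with 64.7% of pairs positive. The median was −0.00443 among 1610 other bright genes. These points share arrays, and the values are a description.

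The level of the set was taken as the median over the 92 genes in each sample. Under quantile normalization this median was 15.31 ± 0.0956 (SD, n = 4) in SNS, 15.31 ± 0.129 in BNS, 15.30 ± 0.036 in BYS, 15.25 ± 0.0137 in BYA and 15.27 ± 0.11 in BYP. Because quantile normalization ties the bright end of every channel together, a change shared by the brightest genes would be hidden in part. With a scaling that gives every channel 1 common median instead, the samples lay between 14.04 and 15.92, and the median difference of the 92 genes was −0.62 for BNS minus SNS, 0.41 for BYS minus BNS, 0.41 for BYA minus BNS, −0.52 for BYP minus BYS and −0.50 for BYP minus BYA. Over all genes those medians were −0.14, 0.15, 0.11, −0.17 and −0.13. The spread between samples of a group grew as well, with BNS at 15.22, 15.72, 14.04 and 15.11, and 0 of the 92 genes were called by limma in any of these comparisons. The direction of the set thus turned with the scaling in BYS minus BNS and BYA minus BNS, and no test of the set was made.

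**Figure D5:**
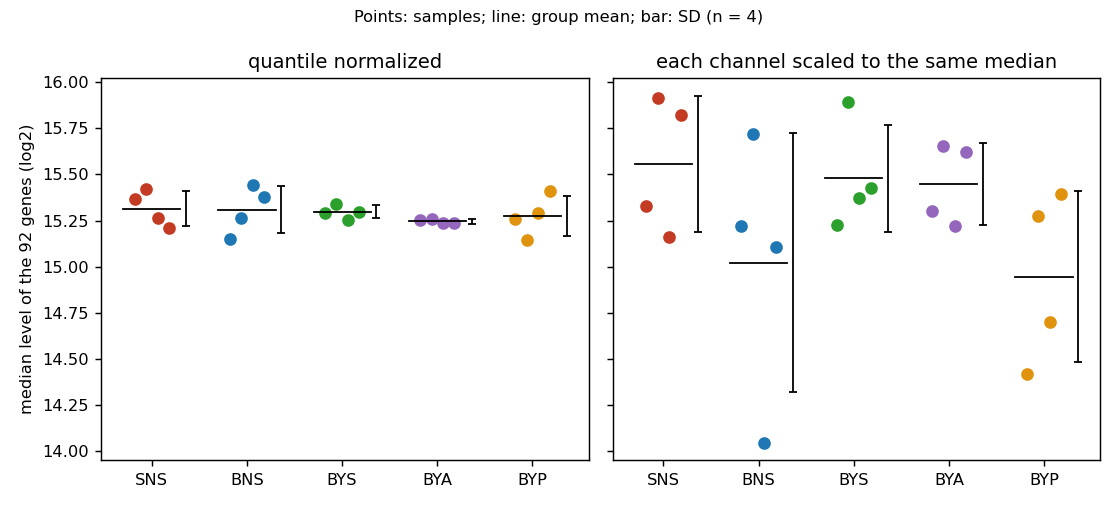
The vertical axis is the median log2 level of the 92 genes in a sample and the horizontal axis the group, with points for samples, a line at the group mean and a bar for the SD (n = 4). Under quantile normalization (left) all samples lie between 15.14 and 15.45, and with the common median (right) they lie between 14.04 and 15.92, with BNS replicate 3 lowest.

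Related gene groups were counted in the same way between BNS and SNS. Of 71 mitochondrial ribosomal protein genes, whose products build the separate ribosome of mitochondria, 7 were higher and 6 lower (median −0.09). Of 49 translation factors, 9 were higher and 2 lower (median −0.03), of 56 ribosome biogenesis genes 9 were higher and 3 lower (median −0.05), and of 19 regulators of ribosomal protein translation 2 were higher and 0 lower (median −0.07). The 5 cytosolic ribosome genes outside the name pattern had 0 calls by limma, with 2 at an unadjusted p under 0.05. In the 6 comparisons without SNS, all of these lists had 0 calls by limma with the array block. Over all genes the background between BNS and SNS was 15.2%. At an unadjusted p under 0.05, the comparison BYP minus BNS had 5 of the mitochondrial ribosomal protein genes, 5 translation factors, 6 ribosome biogenesis genes and 1 regulator, where 10.5% of all genes passed.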

How the data were processed

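The deposited files were scanner output of Agilent Feature Extraction (version 11.5.1.1 per the file headers, 10.7.3.1 per the submitters' processing notes), 1 file per array, with 44254 spots. The mean signal and median background intensity of each channel were deposited by the authors without normalization, along with flags for outlier, saturated and well above background spots. The probe design named build rn4 in the file headers. Members and gene lists were chosen with earlier results of these data known.

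Spots marked as outliers (1.18% of values) and control spots were left out, background was corrected by normexp (offset 50), and quantile normalization of log2 values was applied across the 20 channels. The 82 columns of values from another series on 2 shared arrays were not used. Probes were kept where at least a share of 0.5 of their spots passed that flag in every sample of a group, 4 in all. Spots were averaged by probe, then probes by gene where they had no missing value. Where every probe lacked a value, the probe with the fewest missing was taken, and the first by name in a tie. Groups were compared in 1 limma fit over all samples, with dye as covariate and array as random block (correlation 0.365), on all genes, with Benjamini-Hochberg adjustment and a threshold of 0.05. Single probes were fitted in the same way. The work was done in R 4.3.3 with statmod 1.5.0 and limma 3.58.1, and the fit was tested on simulated data. RefSeq tables matched 61.4% of probes by accession.

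Genes were named by rule: called genes, up to 6 in each direction by size; otherwise the lowest p, up to 3 in each direction; genes with the roles described; and paralogs with their partners. Genes outside the rule are named as such, and the results of some members are not reported here. Alternatives covered background, normalization, filter, probe choice, array and slide blocks, replicate block, single samples left out and a t-test.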

Additional observations from a re-analysis of the deposited data

Results flagged for a closer look

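Among 188 groups of 4 values of the named genes, 12 held a sample whose gap to the nearest other sample, as a share of the range of the group, exceeded Dixon's 95% critical value, where chance gives about 1 in 20. Each is given by this ratio and its levels. In SNS, Rps20 (0.898) had replicate 1 at 12.89 against 14.16 to 14.31, Rps4y2 (0.91) had replicate 4 at 10.72 against 11.04 to 11.07, and Rps19 (0.916) had replicate 2 at 15.91 against 15.68 to 15.70. In BNS, Rpl18 (0.956) had replicate 3 at 15.89 against 15.53 to 15.54, Rpl31l3 (0.858) had replicate 3 at 14.22 against 13.92 to 13.96, and Rps3a (0.949) had replicate 2 at 16.25 against 16.40 to 16.41. In BYS, Rpl7 (0.876) had replicate 4 at 15.60 against 15.99 to 16.04. In BYP, Rpl22l1 (0.843) had replicate 2 at 10.74 against 11.69 to 11.86, and Rpl13a (0.874) had replicate 3 at 16.46 against 16.30 to 16.32. Rpl41 had a ratio of 1 in BNS, BYS and BYA, where the other 3 samples shared 1 value. In BNS and BYS that value was the top of the quantile scale, 17.77, against 17.65 and 17.53 in replicate 3. In BYA it was 17.65, and replicate 4 was at the top, 17.77.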

How the results depend on the processing

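Between BNS and SNS, 15 genes were called. The count was 8 with only the samples of the 2 groups compared (8 higher), 4 from the processed signals (4 higher), 0 with a common median for all channels, 45 with the slide as a random block (23 higher, 22 lower) and 30 by the methods' t-test at an unadjusted p under 0.05. In this order they were 8.7%, 4.35%, 0%, 48.9% and 32.6%, where all genes had 10.2%, 6.35%, 0.0878%, 47.7% and 35.6%. The slide block cannot take out differences between slides, because slide and group cannot be told apart, and its higher counts are no sign of a stronger difference. The 4 alternatives chosen after seeing the data were the local trend subtracted (5), locally dim spots left out (3), only spots in the last 127 rows (2) and the fit without the SNS samples. Leaving out 1 sample gave 10 (without BNS replicate 1) to 17 (without BYP replicate 2). These were 10.9% and 18.5%, where all genes had 11.1% and 14.8%. Of the 13 genes called higher, 8 kept the call each time. Both genes called lower lost it at least once, Rps9 without BNS replicate 1 and Rpl34l1 in 9 cases. In the 6 other comparisons, where 0 were called, the slide as a random block gave 3 (BYA minus BNS), 1 (BYA minus BYS), 9 (BYP minus BNS), 2 (BYP minus BYA), 3 (BYP minus BYS) and 1 (BYS minus BNS), and the t-test 5, 6, 2, 1, 5 and 3. Over all genes the shares were 5.02%, 0.72%, 15.5%, 6%, 2.47% and 1.02% with the slide block and 10.3%, 4.99%, 14.9%, 6.91%, 5.53% and 7.57% by the t-test. Leaving out 1 sample gave 0 in these, except BYP minus BYA, with 0 to 1 (Rps10l1, without BYA replicate 3). The causes were not tested.

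The median difference between BNS and SNS was 0.062 with the local trend subtracted, −0.24 in the last 127 rows, −0.62 with the common median and 0.0524 from the processed signals. With the common median it was also 0.41 in BYA minus BNS, −0.50 in BYP minus BYA, −0.52 in BYP minus BYS and 0.41 in BYS minus BNS. Leaving out 1 sample moved it from −0.10 to −0.06 between BNS and SNS.

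Single genes turned in direction as follows. With the local trend subtracted, Rpl10 was at −0.0054 and Rpl41 at −0.14 in BNS minus SNS, and Rpl31l3 at 0.052 in BYP minus BYA. With locally dim spots left out, Rpl17 was at −0.20, Rpl36a at −0.18 and Rps6 at −0.24 in BNS minus SNS, and Rpl22l1 at −0.0682 in BYS minus BNS. In the last 127 rows, Rpl36a was at −0.18 and Rps6 at −0.24 in BNS minus SNS, Rpl6 at 0.10 in BYA minus BNS and Rps27 at 9e-04 in BYP minus BYA. With the highest-mean probe, Rpl17 was at −0.20. With the common median, BNS minus SNS was −0.18 for Rpl10, −0.0939 for Rpl36a and −0.35 for Rpl41, BYA minus BNS 0.20 for Rpl6 and 0.0238 for Rps10l1, and BYS minus BNS 0.18 for Rpl31l3 and 0.15 for Rps25. BYP minus BYA was then −0.10 for Rpl27a and −0.11 for Rps10l1, and BYP minus BYS −0.12 for Rps25, −0.29 for Rps27a and −0.16 for Rps28. With 1 sample left out, Rps9 in BYA minus BNS lay between −0.0424 (without BNS replicate 1) and 0.3791 (without BNS replicate 3).

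Samples with the same replicate number in different groups did not deviate together (mean r 0.0031, from −0.239 to 0.28 over 40 pairs), so the numbers gave no pairing. With the replicate block, 16 genes were called between BNS and SNS (13 higher, 3 lower), or 17.4%, where all genes had 16.6%. In each other comparison 0 were called, where all genes had at most 0.0819%. The 4 samples per group limit what could be detected. All ribosomal protein probes printed once and called higher in BNS than in SNS lay in places dim in SNS.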

Other observations

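The GC content of a probe was set beside its difference between BNS and SNS as a description. Spearman's rho was −0.0504 across the 160 ribosomal protein probes and −0.1 across 19720 other probes, with a median GC content of 45% in both. Probes of a gene share its RNA and are not independent.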
